A study of Mus musculus with 2 samples.

Results

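Barcodes of B16F10 tumours that carried more Plac8, Hp, Ifitm6 and Napsa transcripts than Il1b, Thbs1, Cxcl2 and Clec4e transcripts, within a broader monocyte gate, are described here under the working name of classical Plac8 and Hp high monocytes. There were 430 such barcodes of 18252, of which 245 of 7688 were in library 1 and 185 of 10564 in library 2. The rule asked for at least 500 unique molecular identifiers (UMIs, 1 per captured transcript), at most 10% mitochondrial UMIs, under 0.4% melanoma UMIs (Pmel, Mlana, Dct and Tyrp1), no Cd3d, Cd3e, Cd3g or Flt3, at most 1 UMI of C1qa, C1qb and C1qc, at most 2 of S100a8 and S100a9, and at least 3 of Lyz2, Chil3, Vcan, F13a1, Plac8 and Ly6c2. The members were thus chosen by measured UMI counts, and the levels of its genes are given as a description. The genes of the rule were left out of every count.

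The tumours were B16F10, a transplantable mouse melanoma line, grown for 2 weeks in LysM-cre x RelloxP/loxP mice, which lack Rel in myeloid cells, and in LysM-cre x Rel+/+ mice. Both genotypes carry LysM-cre, which puts Cre under control of the lysozyme M gene Lyz2, so that Cre is made where Lyz2 is active. Viable CD45+ cells were sorted after collagenase and DNase digestion and a Percoll step, 5 tumours were pooled for each genotype, and 1 droplet 3′ library was made of each pool. The deposited matrix marks each barcode as library 1 or library 2, and nothing in the sources used here ties a library number to a genotype, so the genotypes are not compared. Each genotype is a single library, so no test was run, and the 95% intervals given throughout cover the error of counting UMIs and nothing else.

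Classical monocytes leave the bone marrow through the chemokine receptor CCR2, carry Ly6C on their surface and turn into macrophages or dendritic cells once in a tissue. Plac8 is a small cysteine-rich protein abundant in young monocytes but also in plasmacytoid dendritic cells, Hp is the haemoglobin scavenger haptoglobin, Ifitm6 belongs to the interferon-induced transmembrane family and Napsa is an aspartic protease. In a tumour, monocytes that switch on NF-kB targets such as Il1b and Cxcl2 count among the monocytic suppressor cells, and Rel encodes the NF-kB subunit c-Rel, the gene that the study deleted.

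Short motifs in the promoters of the rule's last inequality are shown because NF-kB is the pathway under study. Of the 8 genes of the inequality, Plac8, Ifitm6, Il1b, Cxcl2 and Clec4e had an entry in the RefSeq promoter table (build GRCm38.p6, 250 bases before to 50 after the start), as did Rel. The search covered both strands and used GGG and TTCC with 3 free bases between them for an NF-kB site, TTGCNNAA for a C/EBP site and GAGGAAGT for a PU.1 site, found in 5.56%, 10.8% and 3.20% of all 32851 promoters. The stretches below are 30 bases of the gene's own strand with the match in capitals, at chr5:90903792-90903821 (+ strand) and chr5:90903811-90903840 (+ strand) for Cxcl2, chr11:23771041-23771070 (- strand) for the NF-kB match and chr11:23771140-23771169 (- strand) for the PU.1 match of Rel, chr5:100563090-100563119 (- strand) for Plac8 and chr6:123289919-123289948 (- strand) for Clec4e.
Plac8, C/EBP: gttttccacggTTCTGCAAccctaccttgt
Clec4e, C/EBP: actccttgtccTTGTGCAAgagaggaaatt
Cxcl2, first NF-kB: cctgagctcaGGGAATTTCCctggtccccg
Cxcl2, other NF-kB: cctggtccccGGGCTTTTCCagacatcgtg
Rel, NF-kB: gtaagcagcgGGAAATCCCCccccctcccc
Rel, PU.1: tggtggctctgGAGGAAGTaagcgcactgg
Cxcl2, the neutrophil-attracting chemokine, held 3 NF-kB matches, of which 2 overlap and 1 of those is printed, and Rel held 1 NF-kB and 1 PU.1 match. The Plac8 match lay in 1 of its 2 listed promoters. The windows of Ifitm6, Il1b and the other Plac8 start had none of the 3 motifs. These matches describe letters in a window and not bound sites.

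Library 1 held 49129318 UMIs with a median of 1588 per barcode, and library 2 held 73507228 with a median of 4290. Members were shallower than that in library 2, with a median of 1674 UMIs in library 1 and 989 in library 2. Summed over members there were 482833 UMIs in library 1 and 208869 in library 2, which set the precision of each level below. The 2 libraries shared 3609 barcode sequences, 2 of them among the members of library 1 and 0 among those of library 2, and no member was a shallow copy of a deep barcode of the other library. Levels are given as CPM, a gene's UMIs over all UMIs of the summed barcodes on the usual CPM scale, with no correction for gene length since 3′ tags are counted.

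Before any comparison, the label was checked against markers of other cell types, and a large fraction of members went against it. Lists of 8 markers each for T, NK, B and plasmacytoid dendritic cells were counted together. At least 2 UMIs over the 4 lists were held by 90 of the 245 members of library 1 (36.7%, 30.7 to 43.1) and 40 of the 185 of library 2 (21.6%, 15.9 to 28.3). In the comparison gate, whose barcodes pass every other step of the rule but have more Il1b, Thbs1, Cxcl2 and Clec4e than Plac8, Hp, Ifitm6 and Napsa UMIs, the shares were 6.09% (3.94 to 8.93) in library 1 and 1.18% (0.386 to 2.74) in library 2, at higher median depths of 1918 and 1063 UMIs. This comparison gate is called the Il1b/Thbs1 gate below and held 394 and 422 barcodes in library 1 and library 2.

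Plasmacytoid dendritic cells, the interferon-producing relatives of dendritic cells, had the most marker UMIs. Their list reached 2 UMIs in 71 members of library 1 (29.0%, 23.4 to 35.1) and 31 of library 2 (16.8%, 11.7 to 22.9), against 2.28% and 0.474% of the Il1b/Thbs1 gate. Siglech, a surface lectin that defines this cell type in mice, was seen in 52 members of library 1 and 20 of library 2, against 1 and 0 barcodes of the Il1b/Thbs1 gate. The summed list stood at 1847 and 1240 CPM in members of library 1 and library 2, against 102 and 56.7 CPM in the Il1b/Thbs1 gate.

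B cell markers reached 2 UMIs in 37 members of library 1 (15.1%) and 10 of library 2 (5.41%), against 2 and 0 barcodes of the Il1b/Thbs1 gate. T cell markers did so in 12 and 3 members and NK cell markers in 10 and 4 members of library 1 and library 2. Several barcodes counted in more than 1 list, 39 in library 1 and 10 in library 2. The immunoglobulin light chain Igkc was concentrated further. A single barcode held 2135 of its 4570 UMIs in members of library 1 and another held 1018 of 1074 in library 2, so that the mean Igkc level of all members stood for a few barcodes. Neutrophil markers reached 2 UMIs in 1 member of each library and melanoma markers in 7 and 8.

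**Figure D1:**
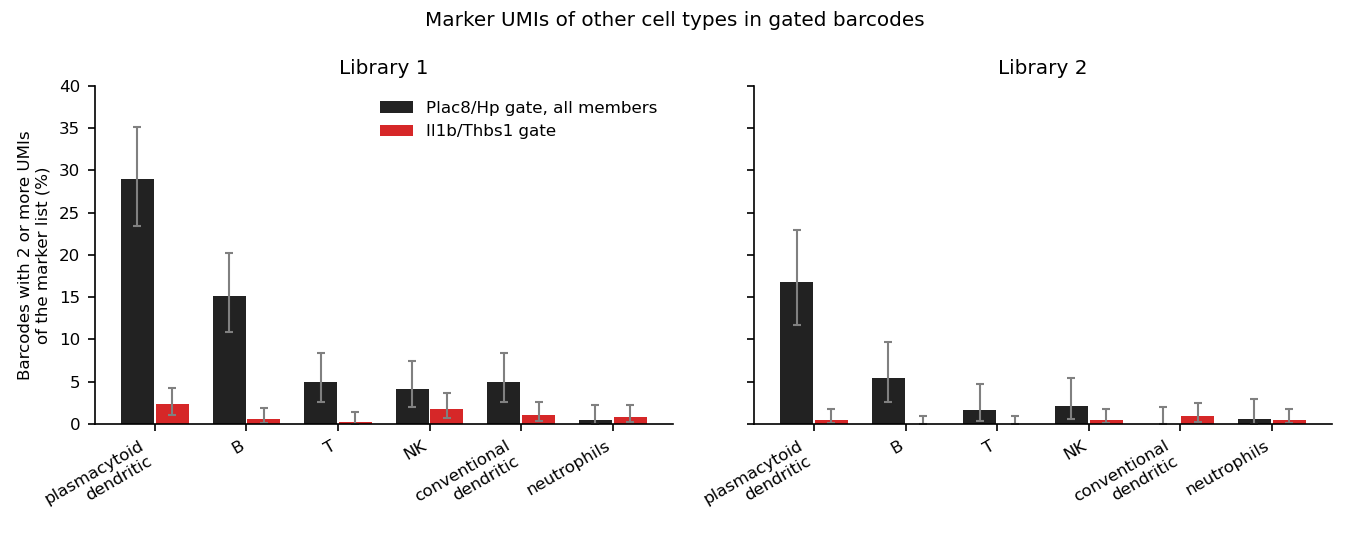
Share of barcodes (%) with at least 2 UMIs of each 8-gene marker list in the Plac8/Hp gate (black, all members) and the Il1b/Thbs1 gate (red), by library, with 95% Clopper-Pearson intervals. The plasmacytoid dendritic list stands highest in members of both libraries, at 29.0% and 16.8%.

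Members were therefore given in 2 sets as well as together. Those with under 2 UMIs over the 4 lists together (155 in library 1 and 145 in library 2) are called lineage-poor members. Those with 2 or more (90 and 40) are called lineage-marked members. Lyz2, the lysozyme gene that drives the Cre, had no UMI in 88.9% and 87.5% of lineage-marked members of library 1 and library 2. It had none in 12.9% and 13.8% of lineage-poor members, and in 6.85% and 11.6% of the Il1b/Thbs1 gate. The median depths of the lineage-marked members were 1710 and 1141.5 UMIs, and those of the lineage-poor members 1604 and 945. Siglech had 0 UMIs in lineage-poor members, which were chosen on the list that holds it.

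The genes of the rule did not move together in lineage-marked members. Plac8 stood at 2043 and 2419 CPM in lineage-marked members of library 1 and library 2, against 2536 (2351 to 2731) and 2470.4 (2226 to 2735) in lineage-poor members. Ly6c2 was at 1118 and 1115 CPM in lineage-marked members, against 494 and 232 in lineage-poor members. Chil3, a chitinase-like secreted protein of young monocytes, was at 116 and 154 CPM in lineage-marked members, against 2674 and 3872 in lineage-poor members. Hp was at 77.1 and 137 CPM in lineage-marked members, against 777 and 684 in lineage-poor members. Ccr2, the exit receptor, was at 140.2 and 189 CPM in lineage-marked members, against 465 and 511 in lineage-poor members. Irf8 and Bst2, a transcription factor and a surface protein that plasmacytoid dendritic cells use heavily, went the other way. Irf8 was at 2101 and 1887 CPM in lineage-marked members, against 516 and 352 in lineage-poor members, and Bst2 at 896 and 961 CPM, against 127 and 46.5. Chil3, Hp and Ccr2 were thus lower in lineage-marked than in lineage-poor members, against the label, while Ly6c2 was higher and Plac8 differed by less than 1.5 times, and the whole set is called by its rule, the Plac8/Hp gate.

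**Figure D2:**
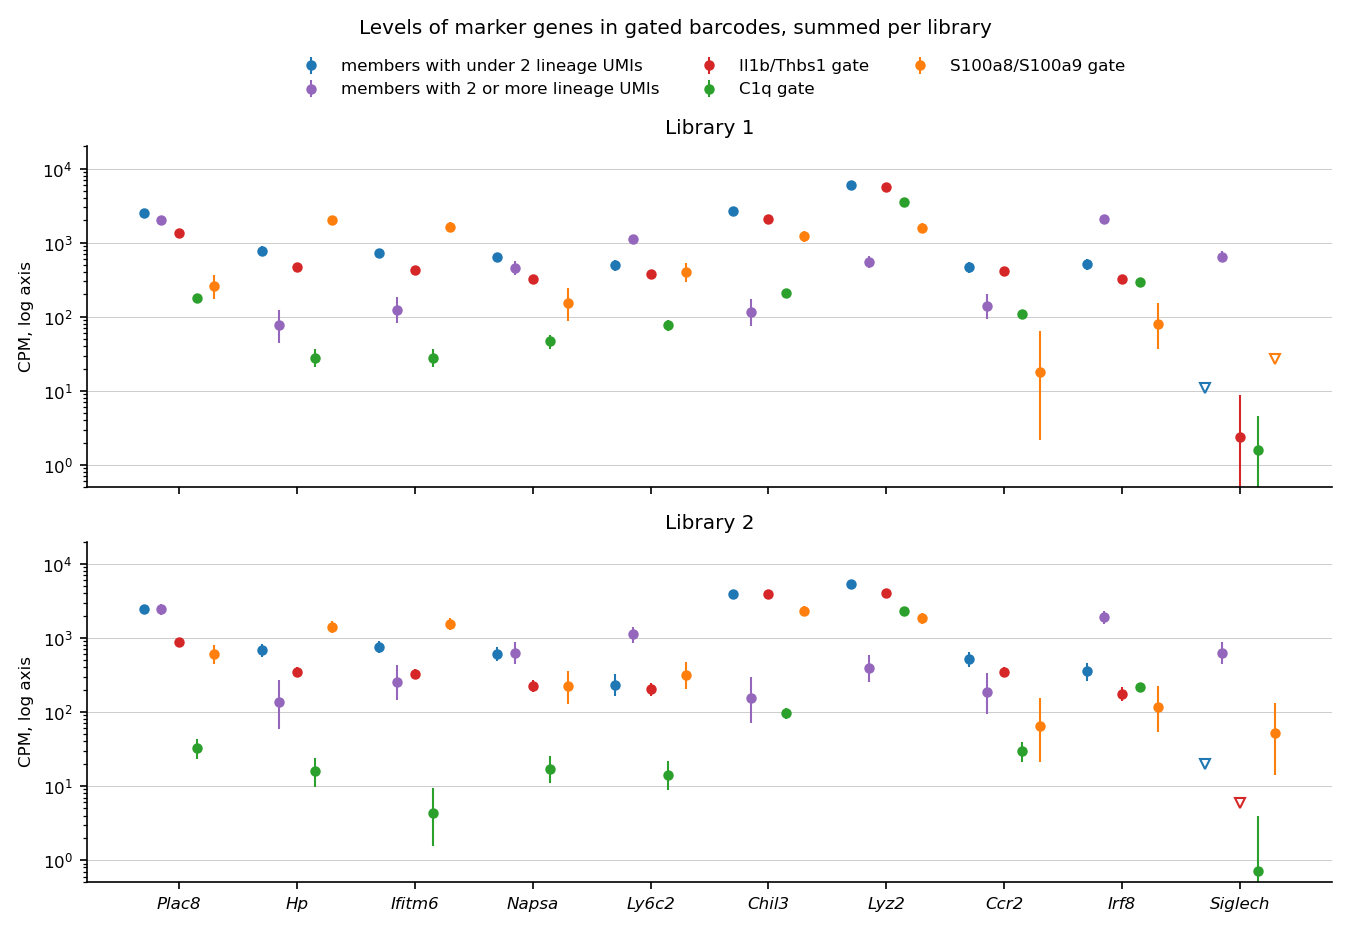
Levels (CPM, log axis, exact Poisson 95% intervals) of the rule's markers, Lyz2, Ccr2, Irf8 and Siglech in lineage-poor members (blue), lineage-marked members (purple) and the Il1b/Thbs1 (red), C1q (green) and S100a8/S100a9 (orange) gates, 1 panel per library, with open triangles at the limit of 3 counts where none was seen. Plac8 is high in both sets of members, while Chil3, Hp and Lyz2 are low and Irf8 and Siglech high in lineage-marked members.

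The 6 markers that named the set were then followed across the gates. Of all QC-passing barcodes, members made up 3.39% (2.99 to 3.84) in library 1 and 1.94% (1.67 to 2.23) in library 2. Of those passing every step but the last inequality, they made up 36.9% (33.2 to 40.7) of 664 and 28.5% (25.1 to 32.2) of 649. With lineage-marked barcodes left out of both gates these shares were 28.4% (24.7 to 32.4) and 24.1% (20.8 to 27.7), and sums were equal in 25 and 42 barcodes. The C1q gate, with at least 5 UMIs of the complement genes that mark macrophages, held 449 and 439 barcodes, and the S100a8/S100a9 gate, with at least 10 UMIs of those neutrophil genes, held 135 and 81.

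In lineage-poor members Plac8 was 2536 and 2470.4 CPM in library 1 and library 2, against 1347 and 869 CPM in the Il1b/Thbs1 gate, 178 and 32.2 in the C1q gate and 258 and 601 in the S100a8/S100a9 gate. Napsa had the same order at the top, with 632 and 611 CPM in lineage-poor members, against 326 and 225 in the Il1b/Thbs1 gate and 46.4 and 17.2 in the C1q gate. Hp and Ifitm6 did not mark monocytes alone. Hp was at 777 and 684 CPM in lineage-poor members, against 2019 and 1412 CPM in the S100a8/S100a9 gate, and Ifitm6 at 723 and 764 CPM, against 1637 and 1543. Chil3, not part of the last inequality, was at 2674 and 3872 CPM in lineage-poor members, against 2110.0 and 3870.1 in the Il1b/Thbs1 gate, and Ly6c2 at 494 and 232 CPM, against 375 and 203. The closely related Ly6c1 had 1 and 0 UMIs in all members.

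The last inequality had no gap around it. Members that passed by a single UMI numbered 22 in library 1 (8.98%) and 34 in library 2 (18.4%). Among lineage-poor barcodes, Plac8 was at 1603 and 1877 CPM in those that passed by 1 UMI in library 1 and library 2, against 1205 and 849 in those with equal sums and 2026 and 1077 in those that missed by 1. At a margin of 8 or more UMIs it was 3667 and 3665 CPM. The lineage-marked share was 22.7% and 11.8% of members that passed by 1 UMI, 38.5% and 12.3% of those that passed by 2 or 3, 38.9% and 39.0% of those that passed by 4 to 7 and 36.5% and 27.3% of those that passed by 8 or more, of which there were only 11 in library 2.

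Against the Il1b/Thbs1 gate, the gate next to it in the rule, members as a whole had 22 genes at least 2 times higher in both libraries (1.11% of the 1978 genes measured) and 76 at least 2 times lower (3.84%). A gene was measured with at least 50 UMIs over both gates in each library, and the log2 ratio of the median gene was -0.03. The rule used this contrast, so these counts describe the set. In lineage-poor members, set against Il1b/Thbs1 barcodes without lineage markers, 2 genes were higher (0.111% of 1794) and 41 lower (2.29%). None of the 22 higher genes was among those 2, and 38 of the 76 lower genes were among the 41. Some of the 22, Igha and Ly6d among them, no longer reached 50 UMIs in that comparison. Levels of the comparison gates are given below over all their barcodes, except in the split by class II genes, while ratios of lineage-poor members are against the barcodes of the gate without lineage markers.

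The leading genes of the whole set included markers of other cell types. Outside the lists the highest ratios were of Igha, Igkc, Ly6d, Rnase6, St8sia4, Tspan13, Rnf187 and R3hdm4. Ly6d, a surface protein of B and plasmacytoid dendritic precursors, was at 731 and 297 CPM in members of library 1 and library 2, against 2.40 and 3.91 in the Il1b/Thbs1 gate. It had 0 and 1 UMIs in lineage-poor members. Igha, an immunoglobulin heavy chain, had 591 and 301 UMIs in members, of which a single barcode held 368 in library 1 and 299 in library 2. Rnase6, a secreted antibacterial ribonuclease, was at 279.6 and 153 CPM in members, against 37.2 and 52.7 in the Il1b/Thbs1 gate, and at 98.1 and 93.0 CPM in lineage-poor members.

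Listed genes with the highest ratios included Bst2, Mef2c, Irf8, Stmn1, Selplg, Ly6a, Hspa1b, Hspa1a, Rac2, Lsp1 and Itga4. Irf8, which monocyte and dendritic precursors both need, was at 1197 and 780.4 CPM in members of library 1 and library 2, against 319 and 176 in the Il1b/Thbs1 gate, a ratio of 3.75 (3.24 to 4.36) and 4.44 (3.41 to 5.81). In lineage-poor members its ratio was 1.94 (1.56 to 2.42) and 2.21 (1.54 to 3.17), with both lower bounds above 1. Mef2c, a transcription factor of lymphoid and dendritic cells, had a ratio of 4.77 and 4.50 in all members and 1.77 and 2.04 in lineage-poor members. Lsp1, a leukocyte actin-binding protein, hardly depended on the lineage markers, with 988 and 914 CPM in members and 995 and 929.7 in lineage-poor members, against 563 and 514 CPM in the Il1b/Thbs1 gate.

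In lineage-poor members the 2 genes past the 2-fold mark were Gyg and Sbno2. Gyg, glycogenin, which primes glycogen synthesis, was at 247 (192 to 313) and 179 (118 to 261) CPM in lineage-poor members of library 1 and library 2, against 95.9 and 72.3 in the Il1b/Thbs1 gate. Sbno2, a co-regulator induced by interleukin-10, was at 302 (240.1 to 374) and 226 (156 to 316) CPM, against 119 and 86.0. Pou2f2, Ifitm1, Cst3, Slfn5, Adgre5 and Cd300a came next outside the lists. Cst3, the protease inhibitor cystatin C that dendritic cells make in quantity, was at 4559 and 2663 CPM in lineage-poor members, against 2014 and 1577 in the Il1b/Thbs1 gate. A single barcode held 176 of its 1255 UMIs in lineage-poor members of library 1, and another held 66 of 401 in library 2. Ranked by the mean of both libraries, the listed genes at the top included Hspa1b, Hspa1a, Ifi209, Irf8, Jun, Mef2c, Itga4, Ly6a, Lsp1 and H2-DMa.

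Heat shock genes, which cells switch on under stress, led that ranking. Hspa1a, an inducible HSP70 chaperone, was at 1547 and 823 CPM in lineage-poor members of library 1 and library 2, against 279 and 461 in the Il1b/Thbs1 gate. Hspa1a and Hspa1b are near-identical copies, so reads may be split between them. A UMI of either was seen in 39.4% and 22.1% of lineage-poor members, against 16.8% and 17.1% of the Il1b/Thbs1 gate, and the 10 richest barcodes held 50.4% and 75.3% of the UMIs in lineage-poor members, against 48.4% and 44.8%. Of the 18 genes of that list, all measured, 0 were higher and 1 (Ier3) lower by 2 times in both libraries in all members, and 0 either way in lineage-poor members, with a median log2 ratio of -0.17 and 0.02.

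Classical monocyte genes that the rule did not use were counted separately. Of 23 listed, 22 were measured, with 2 higher (Ly6a among them), 2 lower (Cd14 and Ccl9) and a median log2 ratio of -0.18. In lineage-poor members 0 of 21 passed either way and the median was 0.34, beside -0.03 for all genes. Ccr2 was at 465 and 511 CPM in lineage-poor members, against 418 and 348 in the Il1b/Thbs1 gate. Ms4a6c, a membrane protein of monocytes, was at 825 and 684 CPM, against 783 and 516. The interferon response list had a median of 0.05 in all members, with Bst2 as the 1 of 11 genes that passed, and 0.48 in lineage-poor members with 0 of 10. Class II antigen presentation stood at 0.38 and 0.56 with 0 of 7 genes past 2 times in either set, and class I presentation at 0.23 and 0.26 with 0 of 9.

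Inflammatory genes past the 2-fold mark were all lower in members in the lists of this kind. Of the NF-kB family and feedback list 10 of 20 were measured, 0 higher and 5 lower (Nfkbia, Nfkbiz, Tnfaip3, Tnip3 and Bcl2a1b), with a median log2 ratio of -1.35. In lineage-poor members 3 were lower (Nfkbiz, Tnip3 and Bcl2a1b) with a median of -1.05. Nfkbiz, an inducible NF-kB cofactor, was at 447 and 99.6 CPM in lineage-poor members of library 1 and library 2, against 986.5 and 326 in the Il1b/Thbs1 gate. Nfkbia, the inhibitor that NF-kB induces against itself, was at 1148 and 804 CPM, against 3299.9 and 1502. Bcl2a1b, a survival gene with near-identical copies, was at 102 and 106 CPM, against 424 and 234.

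Inhibitory and inflammatory mediators followed. Il1rn, the interleukin-1 receptor antagonist, was at 31.1 and 43.1 CPM in members and 50.9 and 59.8 in lineage-poor members, against 324 and 318 in the Il1b/Thbs1 gate, 10.4 and 7.39 times lower for all members. Ptgs2, the prostaglandin enzyme COX-2, was at 58.0 and 43.1 CPM in members, against 399 and 244, and Nlrp3, an inflammasome sensor, at 74.6 and 119.7 CPM, against 579 and 326. These were the 3 that passed of the 5 measured cytokine and enzyme genes, and the same 3 of 4 passed in lineage-poor members. Ccl2, which attracts monocytes, was at 74.6 and 115 CPM in members, against 645 and 484.5, and Ccl7, a ligand of the same receptor, at 45.6 and 101 CPM, against 859 and 316. In all, 4 of 10 chemokines were lower in members (Ccl2, Ccl6, Ccl7 and Pf4), and 3 of 9 in lineage-poor members.

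Some genes of myeloid suppression and of macrophage maturation were also lower. Arg1, the arginine-depleting enzyme of suppressor cells, was at 33.1 and 47.9 CPM in members of library 1 and library 2, against 340.4 and 273.5 in the Il1b/Thbs1 gate, and 6.68 and 4.19 times lower in lineage-poor members. With Arg1, Hmox1, Clec4d, Cd84 and Vegfa made 5 of 12 suppression genes that were lower, and 4 of them (without Hmox1) were lower in lineage-poor members, where the median of the list was -0.96 in library 1 and -0.20 in library 2. Spp1, the secreted phosphoprotein osteopontin, was at 37.3 and 369 CPM in members, against 1754 and 1577 in the Il1b/Thbs1 gate, but a single barcode held 62 of its 77 UMIs in members of library 2. Pf4, a chemokine of platelets and macrophages, was at 33.1 and 28.7 CPM, against 446 and 264. Of 14 maturation genes 7 were lower in members (Trem2, Spp1, Maf, Cd63, Fabp5, Pf4 and Mmp12) and 3 in lineage-poor members (Spp1, Cd63 and Pf4), with medians of -1.32 and -1.12. Hilpda, a lipid droplet gene induced by low oxygen, was among 4 of 14 hypoxia and glycolysis genes that were lower, with Slc2a1, Egln3 and Ndrg1.

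Outside the lists the lowest ratios were of Inhba, Rab20, Clec4n, Slc7a11, Adam8, Lpl, AI504432 and Adora2b, and in lineage-poor members Il7r and Sdc4 joined in place of Lpl and Adora2b. Inhba, the activin A subunit, was at 10.4 and 52.7 CPM in members, against 185 and 211 in the Il1b/Thbs1 gate. It was 3.23 (1.69 to 6.93) times lower in lineage-poor members of library 2, the library with the smaller difference. Clec4n, the fungal receptor Dectin-2, was 8.74 and 5.14 times lower in all members and 5.65 and 3.68 times lower in lineage-poor members.

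**Figure D3:**
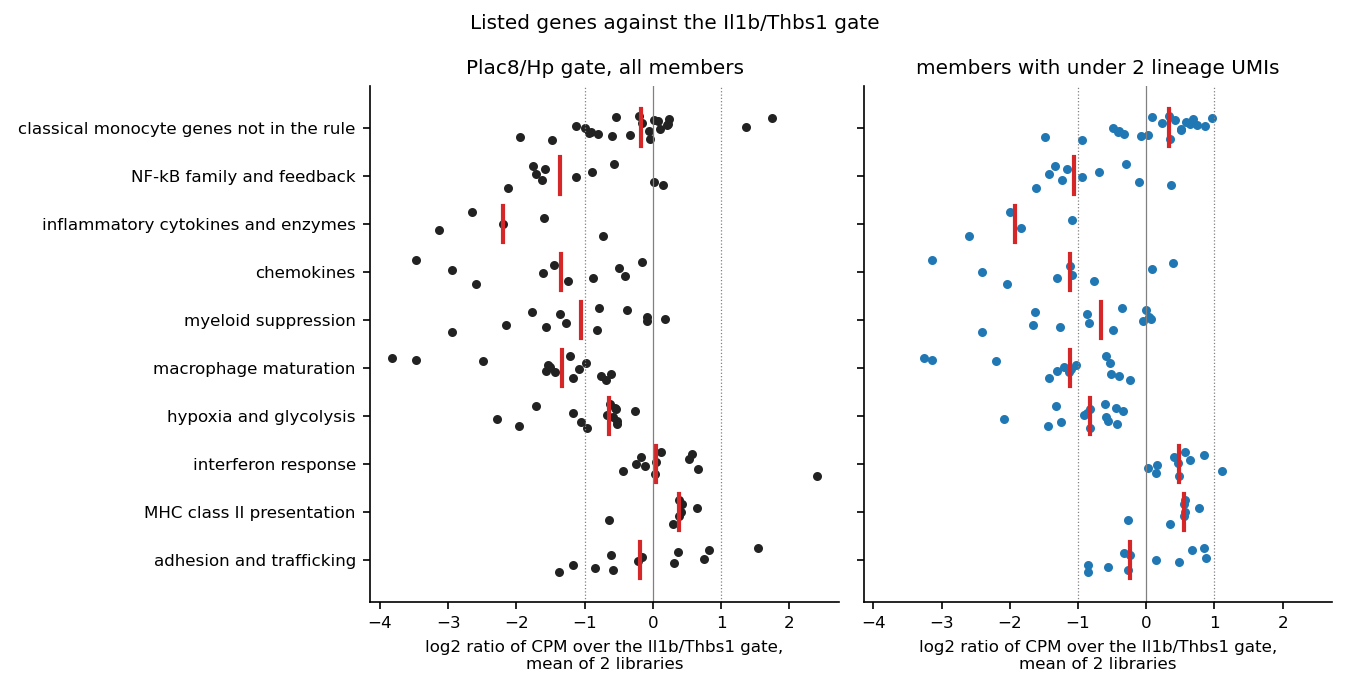
Log2 ratios of CPM over the Il1b/Thbs1 gate (mean of both libraries, 1 point per measured gene, red bar at the list median) for all members (left) and lineage-poor members (right), with dotted lines at a 2-fold ratio. The medians of the NF-kB, cytokine, chemokine, suppression and maturation lists lie left of 0 in both panels, those of NF-kB at -1.35 and -1.05, while single genes lie right of 0, Cxcl9 among them in the right panel.

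Rel itself was sparse in members. It had 80 UMIs in library 1 and 17 in library 2, or 166 (131 to 206) and 81.4 (47.4 to 130.3) CPM, against 409.9 (368 to 456) and 113 (86.0 to 146) in the Il1b/Thbs1 gate. In lineage-poor members it was at 214 (163 to 276) and 79.7 (41.2 to 139) CPM. In the C1q gate it was at 136 (119 to 153) and 26.4 (18.6 to 36.4), and in the S100a8/S100a9 gate at 178 (109 to 275) and 131 (62.7 to 240.4). In library 1 the Il1b/Thbs1 gate was highest and its interval overlapped none of the others. All members, the C1q gate and the S100a8/S100a9 gate overlapped one another there, while lineage-poor members lay above the C1q gate without overlap. In library 2 members overlapped the Il1b/Thbs1 and S100a8/S100a9 gates, and the C1q gate was below all 3.

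The ratio of Rel over the Il1b/Thbs1 gate was 0.529 (0.393 to 0.701) in lineage-poor members of library 1 and 0.729 (0.355 to 1.38) in those of library 2, where a difference was not detectable at this depth. Thinned to 1000 UMIs per barcode, a Rel UMI was present in 14.9% (10.5 to 20.2) of members of library 1 and 5.49% (1.81 to 12.4) of library 2, against 34.5% and 6.91% of the Il1b/Thbs1 gate, with 23 and 94 members left out as too shallow. Unthinned, the shares of members were 24.1% and 7.03%. In barcodes of the melanoma gene gate the thinned shares were 0 (up to 6.85%) and 1.36%.

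Against the C1q gate, most measured macrophage maturation genes were lower in members. Members were chosen for few C1q UMIs and this gate for many, so the counts describe the sets. The gate was also deeper, with medians of 3676 and 2900 UMIs, against 1674 and 989 in members. In both libraries 155 genes were at least 2 times higher (3.87% of 4002) and 361 at least 2 times lower (9.02%), with a median log2 ratio of -0.12 over all genes. In lineage-poor members 121 were higher (3.43% of 3524) and 353 lower (10%), and 83 and 268 of the genes were shared with the first counts. Of 22 measured maturation genes 21 were lower in both sets, with medians of -3.78 and -3.31. The list was not absent, since 89.4% and 90.8% of members held at least 2 UMIs of its genes. Ccl8, a monocyte-attracting chemokine made by macrophages, had 1 UMI in members of each library, against 1483 and 2508 CPM in the C1q gate. Mrc1, the mannose receptor CD206, had 1 and 0 UMIs, against 539.8 and 725 CPM, and Vcam1, an adhesion molecule, had 0 and 0 UMIs, at least 47.9 and 16.4 times lower. Ccl12, Pf4 and Fabp4 completed the 6 lowest.

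The listed genes that stood highest over the C1q gate included Lsp1, Hspa1b, Gsr, Hspa1a and Ccr2. Gsr, glutathione reductase, was at 360 and 272 CPM in lineage-poor members, against 34.8 and 25.7 in the C1q gate. Ccr2 was 3.94 (3.11 to 4.98) and 16.6 (11.2 to 25.1) times higher in lineage-poor members. Of the classical monocyte genes outside the rule, 7 of 20 were higher and 1 lower (Ccl9) in all members, with a median of 0.69, and 7 of 19 higher in lineage-poor members, with 0.95. Cell cycle genes were lower, 12 of 13 in all members and 9 of 11 in lineage-poor members. Interferon response genes were higher in 6 of 18 and 6 of 16, with medians of 0.65 and 0.82. Apoe, a lipoprotein of tissue macrophages, was not absent, at 2554 and 4655 CPM in lineage-poor members, against 11866 and 12858.5 in the C1q gate.

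The S100a8/S100a9 gate was small and its count depended on the scaling. Members were chosen for few S100a8 and S100a9 UMIs and this gate for many, so the counts describe the sets. At total-UMI scaling 99 genes were higher in members (13% of 762) and 60 lower (7.87%), with an all-gene median log2 of 0.59, and with median-ratio scaling 28 were higher and 105 lower, so that directions of most genes here are given only relative to that shift. In lineage-poor members the counts were 81 (13.6% of 596) and 46 (7.72%). Neutrophil granule genes were far outside it. Ngp had 0 UMIs in members of both libraries, against 5178 and 3007 CPM in the S100a8/S100a9 gate, at least 833 and 209 times lower. Camp, an antimicrobial peptide, was likewise at 0 and at least 176 and 55.5 times lower, and Lcn2, an iron-trapping protein, was at 41.4 and 119.7 CPM, against 7704 and 3504. Il1r2, Trem1 and Cd9 were the other 3 of the 6 lowest, and Ly6a, H2-DMb1, Bst2, Ccr2, Irf8 and H2-DMa the 6 highest in all members. In lineage-poor members the 6 highest were Hspa1a, Gbp2, Irf8, Ccr2, Apoe and Ms4a6c.

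Lineage-poor members were not uniform, and antigen presentation genes divided them. A split at 5 UMIs of Cd74, H2-Aa, H2-Ab1 and H2-Eb1, chosen after their values were seen and dependent on depth, put 53 of 155 barcodes of library 1 (34.2%, 26.8 to 42.2) and 28 of 145 of library 2 (19.3%, 13.2 to 26.7) on the high side. The same split gave 37.3% and 18.7% of the Il1b/Thbs1 gate without lineage markers. Median depths were 2113 and 1114.5 UMIs on the high side, against 1526 and 932 on the low side. Plac8 and Napsa, which the rule used to choose every member, were on both sides. Plac8 was at 2352 (2084 to 2645) and 1660 (1267 to 2136) CPM on the high side, against 2674 (2424 to 2942) and 2727 (2432 to 3046) on the low side, so that the sides overlapped in library 1 and not in library 2. Napsa was at 626 and 802 CPM, against 637 and 550.5, with overlap in both libraries.

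Other markers of the label were lower on the high side, Ly6c2 with overlapping intervals in library 2. It was at 237 (157 to 342) and 138 (44.9 to 323) CPM, against 687 (564 to 830) and 262 (177 to 374). Ifitm6 was at 372 and 415 CPM, against 987 and 874. Chil3 was at 854.5 and 858 CPM on the high side, against 4042 and 4824 on the low side, Hp at 135 and 277 CPM, against 1260.4 and 813, and Lyz2 at 2733 and 3237 CPM, against 8562 and 6012. Vcan, the proteoglycan versican of young monocytes, was at 25.4 and 27.7 CPM, against 433 and 306. The high side carried Cst3 at 7894 and 4952 CPM, against 2049.8 and 1940.0, and Ifitm1, an interferon-induced membrane protein, at 964.5 and 1273 CPM, against 121 and 218.5. In the Il1b/Thbs1 gate the same split gave Cst3 at 2127 and 2180.4 CPM on the high side, against 1697 and 1396, and Chil3 at 1073 and 1897 CPM, against 3022 and 4519. Markers of conventional dendritic cells, whose precursors also carry class II, reached 2 UMIs in 9 and 0 barcodes of the high side, against 0 and 0 of the low side, and summed to 35 and 6 UMIs, against 5 and 1. Of these Cd209a, a lectin of monocyte-derived and type 2 dendritic cells, had 6 and 4 UMIs, against 0 and 0. Ccr7 had 9 and 0 UMIs, against 1 and 0, Xcr1 5 and 0, against 0 and 0, and Clec9a 3 and 1, against 0 and 0. Zbtb46, which defines conventional dendritic cells, had none on either side, but was too sparse for its absence to tell much. The conventional dendritic list reached 2 UMIs in 17.0% and 0% of the high side, against 0.725% and 2.56% of the high side of the Il1b/Thbs1 gate. The part of such cells in the split was not tested, and Flt3, their growth factor receptor, was excluded by the rule.

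**Figure D4:**
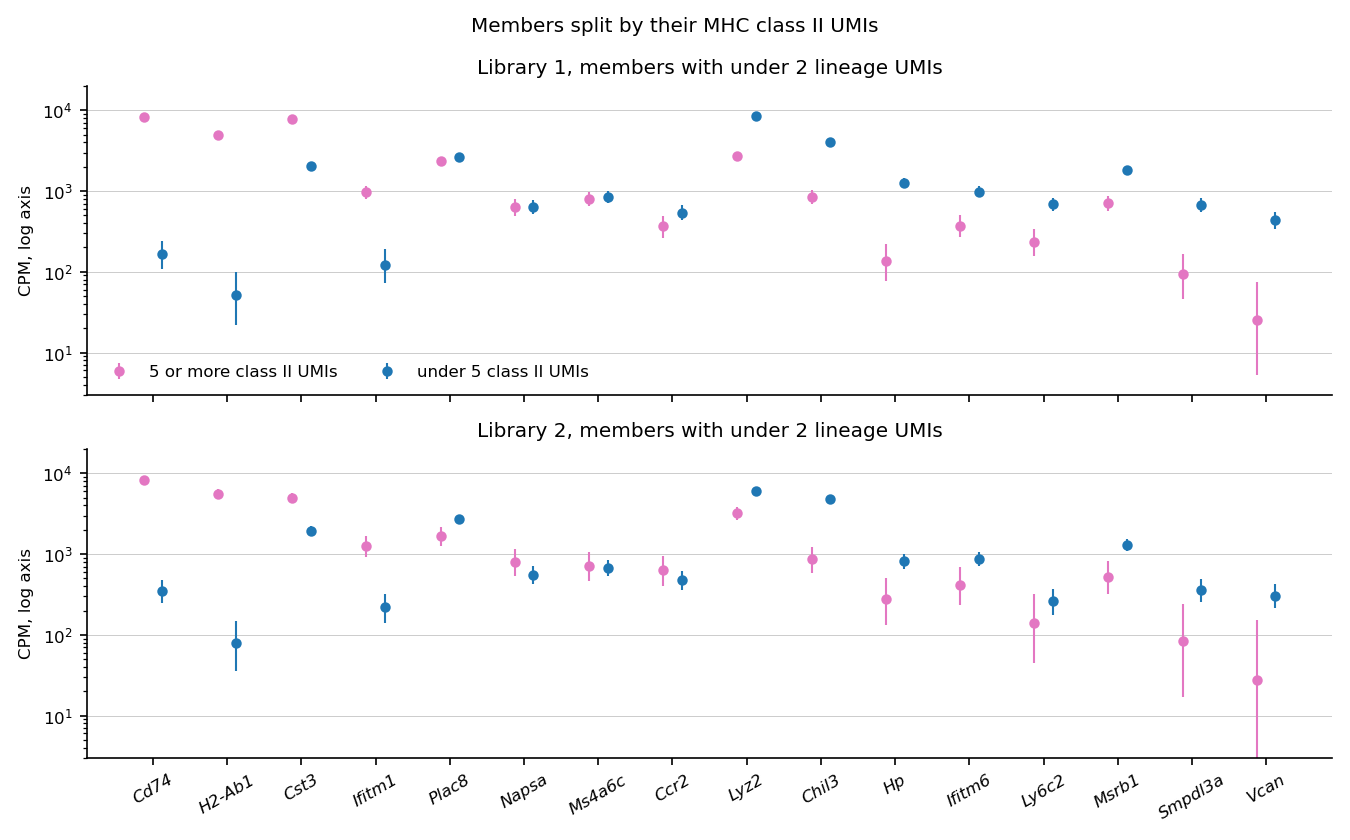
Levels (CPM, log axis, exact Poisson 95% intervals) in lineage-poor members with 5 or more class II UMIs (pink) and under 5 (blue), 1 panel per library. Napsa and Ms4a6c have overlapping intervals in both libraries and Plac8 is lower on the high side in library 2 without overlap, while Chil3, Hp, Lyz2, Msrb1, Smpdl3a and Vcan are lower and Cst3 and Ifitm1 higher on the high side.

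Some markers listed for non-classical monocytes, the patrolling Ly6C-low type, were present as well, but whether they mark a subset of that type was not tested. Their list reached 2 UMIs in 54 lineage-poor members of library 1 (34.8%) and 28 of library 2 (19.3%), against 120 (30.5%) and 51 (12.1%) barcodes of the Il1b/Thbs1 gate. Ace, an angiotensin-converting enzyme, was at 76.3 and 73.1 CPM in lineage-poor members, Treml4, a receptor on non-classical monocytes, at 32.7 and 86.3 CPM, and Cx3cr1, the fractalkine receptor, at 61.8 and 53.1 CPM. Lineage-poor members with at least 2 UMIs of the list were chosen on Nr4a1, Itgal and Cx3cr1 among others, which raises these levels. In them Nr4a1 was at 408.0 and 536.4 CPM, Itgal at 387.1 and 435.8 and Cx3cr1 at 156.9 and 100.6. Their Ly6c2 intervals overlapped those of lineage-poor members with no UMI of the list in both libraries. Plac8 was higher in them than in the latter in library 1, at 3107.3 against 2026 CPM, with overlapping intervals in library 2.

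The libraries were set side by side within members, with no genotype attached. At least 2 times higher in library 1 were 67 genes (3.35% of 1999), and 32 were at least 2 times lower (1.6%). With median-ratio scaling the counts were 52 and 40, and the all-gene median log2 was 0.07. In lineage-poor members 38 genes were higher (3.19% of 1192) and 26 lower (2.18%). The ratio of Plac8 was 0.946 (0.852 to 1.05), an interval that includes 1. Some genes at the ends of the ranking came from 1 barcode. All 97 UMIs of Ighg1, an immunoglobulin heavy chain, lay in 1 barcode of library 1, and 74 of 75 UMIs of Gzmc, a granzyme of killer cells, in 1 lineage-marked barcode of library 2.

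In lineage-poor members the lists split between the libraries. Of 6 measured NF-kB genes 2 were higher in library 1 (Rel and Nfkbiz) and 0 lower, of 6 chemokines 1 was higher (Cxcl9) and 1 lower (Ccl4), and of 11 interferon response genes 1 was higher (Ifi47) and 1 lower (Rsad2), with medians of 0.87, -0.24 and 0.25. Nfkbiz stood at 447 and 99.6 CPM in lineage-poor members of library 1 and library 2, with a ratio of 4.49 (2.62 to 8.26), and was seen in 71 and 11 barcodes. Cxcl9, a T cell-attracting chemokine induced by interferon-gamma, stood at 650.2 and 166 CPM, with a ratio of 3.92 (2.57 to 6.21), and was seen in 21 and 9 barcodes. A single barcode held 41 of its 179 UMIs in library 1, and another held 7 of 25 in library 2. Rel was at 214 and 79.7 CPM, with a ratio of 2.69 (1.43 to 5.50). Tnf, the inflammatory cytokine, was at 163 and 26.6 CPM, but its 45 and 4 UMIs fell short of the 50 asked for, so it was not among the genes counted. Fos, Egr1, Ier2 and Dusp2 were the 4 of 16 immediate early and heat shock genes that passed. Mcub, Tmem176b, Smc1a, Tnfaip8, Plekho1, Fkbp8 and Serpina3g were also among the 10 highest.

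On the low side, Ccl4, an inflammatory chemokine, was at 229 CPM in lineage-poor members of library 1 and 697 in those of library 2, a ratio of 0.328 (0.236 to 0.453). A single barcode held 9 of its 63 UMIs in library 1, and another held 25 of 105 in library 2. Fabp5, a fatty acid carrier, was at 432 and 1023 CPM. Spp1 had a ratio of 0.128 (0.072 to 0.216) that rested on the 1 barcode with 62 UMIs in library 2. The rest of the 10 lowest were mt-Atp8, Gpnmb, Sqstm1, mt-Nd4l, Rps29, Cast and AC160336.1. In all members the 10 highest were Ighg1, Tnf, Acbd6, Safb, Mcub, Cops6, Ube2q1, Cxcl9, Rnf213 and Fkbp8, and the 10 lowest were Gzmc, Spp1, Hilpda, mt-Atp8, Scpep1, AC160336.1, Gpr65, Msr1, Ist1 and Rab7b.

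Rel, Nfkbiz, Tnf and Cxcl9 were also higher in library 1 in the Il1b/Thbs1 gate. Rel stood there at 409.9 and 113 CPM, Nfkbiz at 986.5 and 326, Tnf at 645 and 64.5 and Cxcl9 at 367 and 160.2. Ccl4 went the other way in that gate, with 1402 CPM in library 1 and 744 CPM in library 2. Depth, the cell types present and genotype differ together between the 2 libraries and cannot be told apart.

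**Figure D5:**
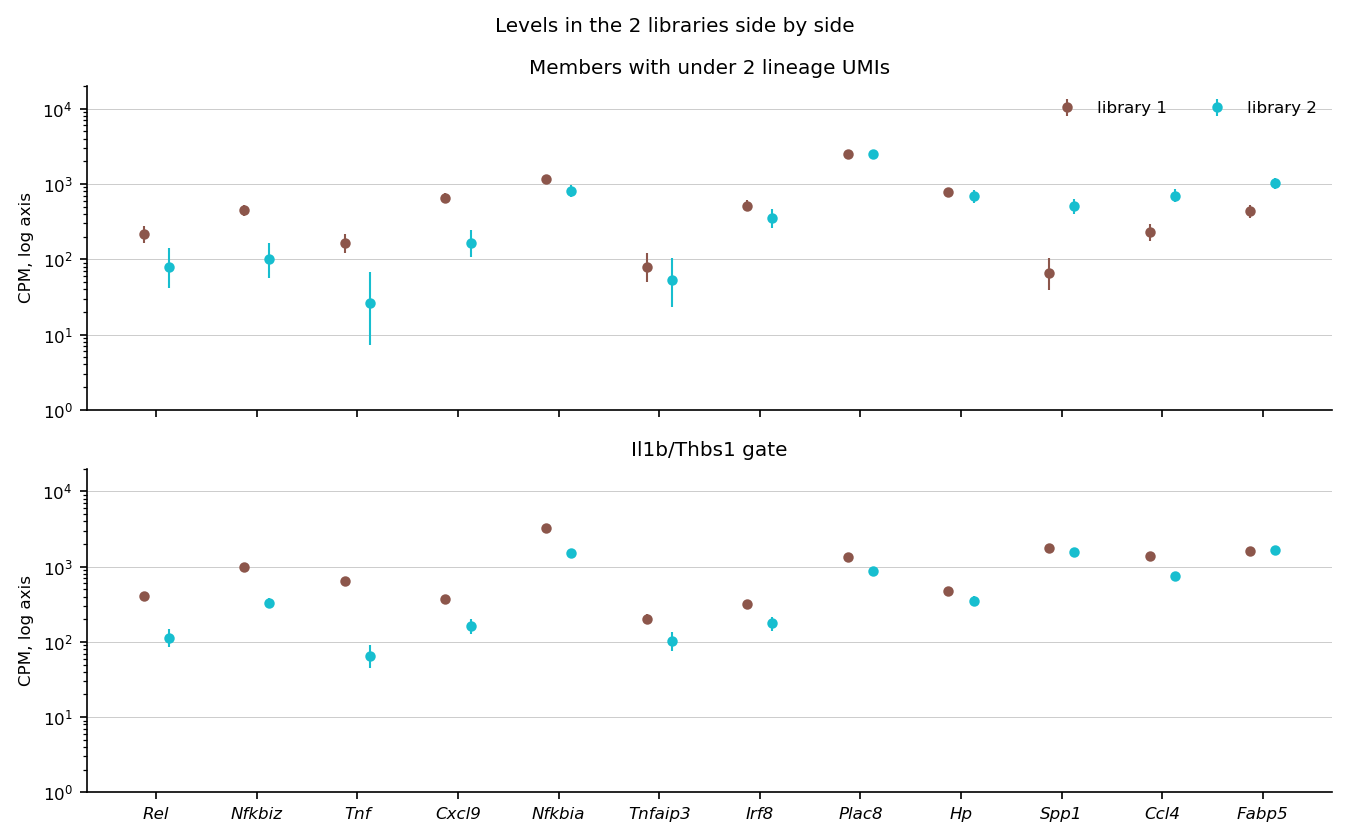
Levels (CPM, log axis, exact Poisson 95% intervals) of 12 genes in library 1 (brown) and library 2 (cyan) in lineage-poor members (top) and the Il1b/Thbs1 gate (bottom). Plac8 and Hp of the members lie together in both libraries, while Rel, Nfkbiz, Tnf and Cxcl9 are higher in library 1 and Spp1, Ccl4 and Fabp5 higher in library 2 in the upper panel.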

How the data were processed

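Per the labels' protocols, sorted CD45+ cells gave 1 droplet 3′ library per genotype, sequenced towards an average of 10000 reads a cell. The authors deposited raw UMI counts as 1 filtered matrix (31053 genes, 18252 barcodes, 33700981 entries), which software version 3.0.2 wrote, per the file headers. Cell Ranger and the build mm10 appear in the submitters' processing notes. The sources used here do not give the counting settings. The barcode ending gave the library, and 0 columns were left unmapped.

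The members and gene lists were chosen with earlier results of these data known. CPM were computed from UMIs summed over the barcodes of a gate in a library. Exact intervals at 95% were Poisson for levels, Clopper-Pearson for shares and conditional binomial for ratios, for counting error only. A count of 0 was given a limit of 3 counts. A gene was past the fold at a ratio of at least 2 in the same direction in both libraries (in 1 comparison for the libraries side by side), and needed 50 UMIs over both gates in each library, or 50 UMIs over both libraries and 20 CPM in 1 of them. The 35 symbols given to more than 1 gene and the 26 genes of the rule and of the gates were left out of counts. Of 360 genes in 28 lists, 359 were found. Lineage-marked means at least 2 UMIs over the 4 lists together.

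Named genes are the 12 highest and 12 lowest listed genes and the 8 highest and 8 lowest others against the Il1b/Thbs1 gate, the 6 highest and 6 lowest listed genes against the other gates, the 10 highest and 10 lowest between libraries, Rel and the 6 markers. Other genes of the text come from the lists or were chosen after their values were seen. Scrublet in scanpy 1.11.5 marked 0% and 0.0105% of barcodes and so had not worked, and no doublets were removed. Leaving out its top 6% instead removed 11 and 1 members. Simulated counts were used to test the ratio step. Alternatives were other filters on UMIs, mitochondrial share and margin, lineage-marked or copied barcodes left out, melanoma RNA subtracted, other scaling, means over barcodes and other gene filters. One more, leaving out barcodes with 1 lineage or immunoglobulin UMI, was chosen after seeing the data. The work ran in Python 3.11.15 with matplotlib 3.10.9, scipy 1.17.1, pandas 2.3.3 and numpy 2.4.6. A few listed genes that the naming rule would include are not reported here.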

Additional observations from a re-analysis of the deposited data

Results flagged for a closer look

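A total of 4 genes went opposite ways in the 2 libraries, with intervals that excluded 1 on both sides, and the difference between the libraries was not tested in any of them. Rsad2, an interferon-induced antiviral enzyme, had a ratio over the Il1b/Thbs1 gate of 0.457 (0.309 to 0.660) in members of library 1 and 1.73 (1.10 to 2.70) in those of library 2, where a single barcode held 23 of its 36 UMIs. Cd14, the lipopolysaccharide co-receptor, had a ratio over the C1q gate of 0.414 (0.319 to 0.530) in library 1 and 1.54 (1.18 to 1.99) in library 2, with 145 and 359 CPM in members, against 350.4 and 233 in the C1q gate. Cd274, the checkpoint ligand PD-L1, had a ratio over the C1q gate of 0.585 (0.388 to 0.856) in library 1 and 1.67 (1.03 to 2.62) in library 2, with 31 and 25 UMIs in members. Tpi1, a glycolytic enzyme, had a ratio over the S100a8/S100a9 gate of 1.53 (1.12 to 2.13) in library 1 and 0.655 (0.486 to 0.889) in library 2, a comparison that also moved with scaling.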

How the results depend on the processing

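No paired analysis was possible because there is 1 library per genotype and library numbers carry no genotype. Leaving out lineage-marked barcodes gave member shares of 28.4% and 24.1%, 2 genes higher and 41 lower than in the Il1b/Thbs1 gate, and 38 higher in library 1. Leaving out barcodes with 1 lineage or immunoglobulin UMI as well gave 28.2% and 22.0%, 2 and 34 genes, 85 higher than in the C1q gate, 64 higher than in the S100a8/S100a9 gate, and 28 higher and 12 lower in library 1. Gzmc reversed in both, from a log2 ratio of library 1 over library 2 of -5.85 to 0.71 and 0.82, values set by the floor of 3 counts, since its UMIs lay in 1 lineage-marked barcode. A margin of at least 3 UMIs gave shares of 28.9% and 17.3%. Against the S100a8/S100a9 gate, at least 1000 UMIs gave 20 higher and 11 lower, means over barcodes 201 higher, and median-ratio scaling 28 and 105. With 10 UMIs per gene the counts were 171 and 171 against the Il1b/Thbs1 gate, 485 and 586 against the C1q gate, 535 and 215 against the S100a8/S100a9 gate and 716 and 320 between libraries. With no gene filter they were 502 and 203, 766 higher, 564 and 383, and 698 and 369, as more genes of few UMIs entered. Of 88 named values, all stayed within 1.5 times of their value with a 5% mitochondrial maximum, median-ratio scaling and melanoma RNA subtracted. Gene filters cannot alter a single gene's value, and no member was a copied barcode, so those alternatives say nothing of stability there. Leaving out lineage-marked barcodes moved 23 of them, at least 1000 UMIs 6, the margin 6 and means over barcodes 8.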

Other observations

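Lineage-poor members were also divided by Chil3 alone, and this split overlapped the class II split above. A Chil3 UMI was seen in 28.3% and 21.4% of the class II high side, against 66.7% and 76.9% of the low side. Cd74 was at 1483 and 857 CPM on the Chil3 side, against 5801 and 4731 CPM in members with none. Hp, Lyz2 and Plac8 were higher on the Chil3 side and Napsa was not apart. Members with at least 2 Chil3 UMIs numbered 72 in library 1 and 85 in library 2, and had Hp at 1234 and 845 CPM, against 334 and 499.9 CPM in the 72 and 49 members with none. Lyz2 was at 8351 and 6541 CPM in members with Chil3, against 3617 and 3928 CPM in members without, and Plac8 at 2957 and 2630.4 CPM, against 2154 and 2089 CPM. Napsa was at 681 and 634 CPM, against 587 and 625, and Ly6c2 at 745 and 258 CPM, against 282 and 179, with overlapping intervals for Napsa in both libraries and for Ly6c2, Hp and Plac8 in library 2. Depths were close, with medians of 1702 and 943 UMIs, against 1589 and 1037. Members with at least 3 UMIs of cell cycle genes were few, 10 of 155 in library 1 and 2 of 145 in library 2. The Il1b/Thbs1 gate of library 1 held 1531 UMIs of red cell and platelet genes and that of library 2 held 18, against 22 and 9 in lineage-poor members. How many barcodes held these UMIs is not given here. The deepest barcode of that gate in library 1 had 24375 UMIs of all genes, against a median of 1918.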
